A study of Homo sapiens with 4 samples.

Results

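CXCL1, CXCL2, CXCL3, CXCL8, IL6, IL1A, IL1B, CCL20, LIF and CSF2 encode secreted inflammatory messengers whose genes are classical targets of the transcription factor NF-kB. They were chosen by gene name, 10 of the 60623 genes in the expression table, and each name matched 1 row. The messages were measured by RNA-seq in T24, an established human urinary bladder carcinoma line grown in RPMI medium with 10% fetal calf serum. Control cells (2 libraries) were compared with cells overexpressing CBX7 (2 libraries), a chromobox protein of Polycomb repressive complex 1. Full-length CBX7 was carried on a FLAG-tag pCDH expression plasmid. The vector of the control cells, the number of clones behind each line and whether the libraries of a group came from separate cultures are not given in the sources used here, so that p-values measure only the spread between these libraries.

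Libraries held 20800910 to 25135488 estimated counts. CBX7 itself checked the labels: it stood at 10.9 and 9.67 CPM (counts relative to library size, after TMM normalisation for library composition) in the control libraries and at 1774 and 1595 CPM in the CBX7 libraries, a log2 fold change of 7.35 (SE 0.18, edgeR adjusted p = 0.000576). Keratins of simple epithelium were abundant, with KRT7 between 1197 and 1465 TPM (transcript abundance scaled to gene length and library depth), KRT18 between 1092 and 1293 and KRT8 between 853 and 954. The urothelial markers KRT20, UPK1B, UPK2 and UPK3A and the epithelial cadherin CDH1 did not exceed 0.27 TPM, and KRT5 was at 0. In CBX7 replicate 1 the log2 ratio to control replicate 1 followed gene length (Spearman rho = -0.62 across 11040 genes, which are not independent replicates), whereas for replicate 2 rho was 0.04. Because 9 of the 10 cytokine genes are shorter than the median tested gene of 2867 bases, values are given below for each CBX7 library.

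NF-kB is a family of dimeric transcription factors held in the cytoplasm by IkB proteins. When receptors for IL-1, TNF or microbial products activate the IkB kinase complex, IkB is degraded, the dimers enter the nucleus and bind kappa-B elements in the promoters of inflammatory genes. The chemokines CXCL1, CXCL2, CXCL3 and CXCL8 act on the receptors CXCR1 and CXCR2 and recruit neutrophils. CCL20 attracts CCR6-bearing lymphocytes and dendritic cells, IL-1 alpha and IL-1 beta signal through IL1R1, IL-6 and LIF signal through gp130 to STAT3, and CSF2 (GM-CSF) expands and activates myeloid cells. Many carcinoma lines, bladder lines among them, secrete such factors without any added stimulus.

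Promoter sequences show what these genes have in common upstream of their starts. RefSeq (GRCh38.p14) promoters, from 250 bases before to 50 bases after the start, were matched for 9 of the 10 genes, LIF being the exception. These RefSeq starts can differ from the ends of the GENCODE gene spans given further below. The windows shown here lie wholly inside those spans for IL6, CCL20 and IL1A, and partly for CXCL2, CXCL3 and CXCL8. Both strands were searched for the kappa-B consensus, for the 9-base element GGAATTTCC and for the AP-1 element TGANTCA. The first of these was held by 5.91%, the second by 0.461% and the third by 7.71% of all 35116 promoters of this length. A kappa-B consensus match lay between 79 and 64 bases before the start in CXCL1, CXCL2, CXCL3, IL6 and CCL20. GGAATTTCC was found in the 4 CXC chemokine promoters, where in CXCL1, CXCL2 and CXCL3 it overlaps 2 overlapping consensus matches. AP-1 matches were found in CXCL8 and IL1A, and none of the 3 patterns was in the windows of IL1B and CSF2, which says only that these letters are not there. The 150 bases before the start are shown, 5′ to 3′ on the gene's strand, for the 4 CXC chemokines because of their shared element, for IL6 and CCL20 because they hold a kappa-B match of other letters, and for IL1A because it was the one message above both controls in both CBX7 libraries. Capitals mark kappa-B matches (GGAATTTCC in CXCL8), and TGACTCA and TGAGTCA in capitals are AP-1 matches. Positions are chr4:73869243-73869392 (plus strand) for CXCL1, chr4:74099196-74099345 (minus) for CXCL2, chr4:74038690-74038839 (minus) for CXCL3, chr4:73740419-73740568 (plus) for CXCL8, chr7:22727050-22727199 (plus) for IL6, chr2:227813692-227813841 (plus) for CCL20 and chr2:112784401-112784550 (minus) for IL1A, the downstream one of its 2 RefSeq starts.
CXCL1: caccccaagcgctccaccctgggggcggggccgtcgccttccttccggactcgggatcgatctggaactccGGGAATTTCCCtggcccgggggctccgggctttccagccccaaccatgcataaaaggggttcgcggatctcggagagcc
CXCL2: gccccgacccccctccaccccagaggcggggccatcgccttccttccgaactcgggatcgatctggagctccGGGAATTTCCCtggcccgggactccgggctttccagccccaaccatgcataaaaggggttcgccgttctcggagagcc
CXCL3: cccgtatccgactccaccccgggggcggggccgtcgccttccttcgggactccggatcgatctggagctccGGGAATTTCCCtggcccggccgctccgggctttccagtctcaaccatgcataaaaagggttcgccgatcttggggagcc
CXCL8: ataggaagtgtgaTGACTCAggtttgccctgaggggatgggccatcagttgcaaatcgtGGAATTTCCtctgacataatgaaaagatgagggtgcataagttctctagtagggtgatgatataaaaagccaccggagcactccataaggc
IL6: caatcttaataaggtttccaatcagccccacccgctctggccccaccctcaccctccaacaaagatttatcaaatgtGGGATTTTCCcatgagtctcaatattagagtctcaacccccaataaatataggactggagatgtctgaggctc
CCL20: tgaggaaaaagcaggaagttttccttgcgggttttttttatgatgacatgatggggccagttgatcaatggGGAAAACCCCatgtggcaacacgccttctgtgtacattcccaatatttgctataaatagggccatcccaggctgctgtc
IL1A: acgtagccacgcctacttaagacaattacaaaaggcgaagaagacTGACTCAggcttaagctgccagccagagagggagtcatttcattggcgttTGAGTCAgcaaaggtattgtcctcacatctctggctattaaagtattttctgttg

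These windows fall into a close trio and a more distant gene. CXCL1 and CXCL2 were identical at 134 of 149 aligned bases (89.9%), CXCL1 and CXCL3 at 133 of 149 (89.3%) and CXCL2 and CXCL3 at 130 of 149 (87.2%). CXCL8 shared 49.6% to 58.4% of aligned bases with them. The coding sequences of the trio are also close, from 90.7% (CXCL1 and CXCL3) to 94.4% (CXCL2 and CXCL3) of 321 bases.

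In levels per transcript length, the control T24 cells made these messages at widely different levels. CXCL1 was the most abundant, at 1963 and 1932 TPM, and only 104 genes had a higher mean TPM over the 4 libraries. CXCL8 followed with 684 and 700 TPM, IL1B with 456 and 453 TPM, and LIF with 141 and 142 TPM. CXCL2 stood at 98.6 and 88.2 TPM. IL6 followed with 67.4 and 66.9 TPM, just above IL1A with 62.9 and 66.9 TPM, and CSF2, with 72.9 and 65.0 TPM, overlapped both and could not be ordered against them. CXCL3 was lower, at 38.5 and 41.1 TPM, and CCL20 was near the lower end of detection, at 2.95 and 2.38 TPM. CXCL1 alone made up 52.8% to 57.4% of the summed TPM of the 10 genes in each library, and the 10 together took 0.324% and 0.311% of all counts in the control and 0.304% and 0.284% in the CBX7 libraries. In CBX7 cells the 4 most abundant messages kept this order by mean TPM, and IL1A, with 72.8 and 97.6 TPM, came next, above CXCL2 with 71.5 and 72.2 TPM.

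**Figure D1:**
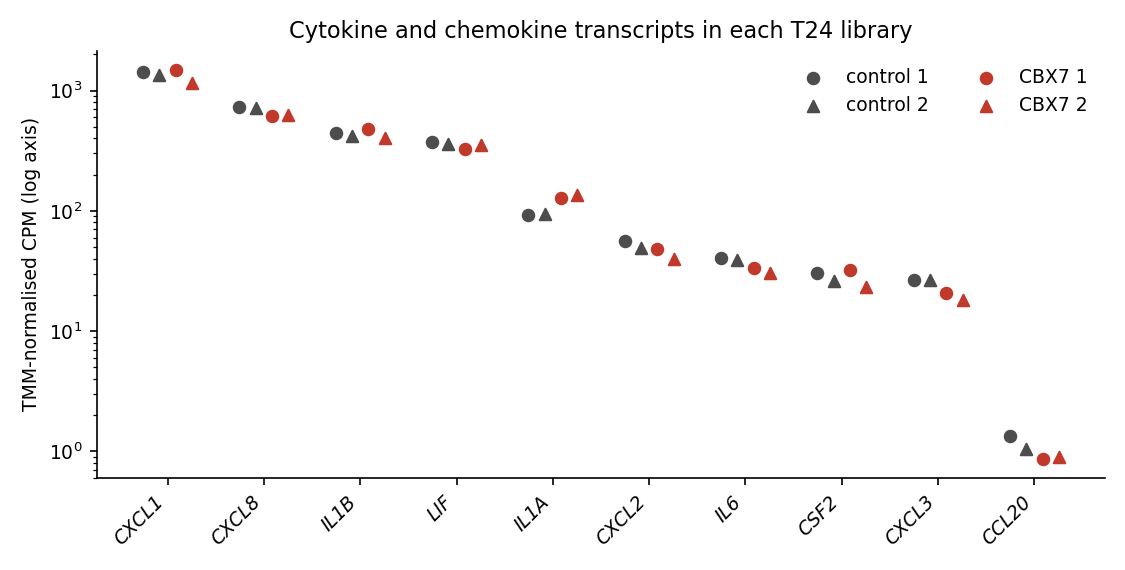
TMM-normalised CPM (log axis) of each cytokine and chemokine message in the 4 T24 libraries; each point is 1 library, grey for control and red for CBX7, with circles for replicate 1 and triangles for replicate 2. Both CBX7 points lie above both control points for IL1A and below them for CXCL8, LIF, CXCL2, IL6, CXCL3 and CCL20; heights are to be compared within a gene, since CPM is not corrected for length.

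All 10 messages passed the filter on low counts. None passed an adjusted p of 0.05 in edgeR's quasi-likelihood test, against 0.0202% of the 14863 genes tested, and adjusted p ranged from 0.670 to 0.986. DESeq2, and limma on log2(TPM + 1), called none of them either. At an unadjusted p under 0.05 edgeR gave 2 messages, against 4.74% of all genes: IL1A was higher (3.42% of all genes) and CXCL3 lower (1.32%). DESeq2 gave the same 2 at that level, against 2.88% of all genes. Limma gave 3, CXCL2, CXCL3 and IL6, against 3.61% of all genes, and did not include IL1A. The log2 fold change was below 0 in 8 of 10 messages, against 49.7% of all genes, and its median was -0.16, against 0.0017 for all genes. In 6 messages both CBX7 libraries lay below both control libraries (14.8% of all genes), in 1 they lay above (15.4%), and in 3 the groups overlapped. The 10 values come from the same 4 libraries, so these counts describe the list and are not a test of it.

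**Figure D2:**
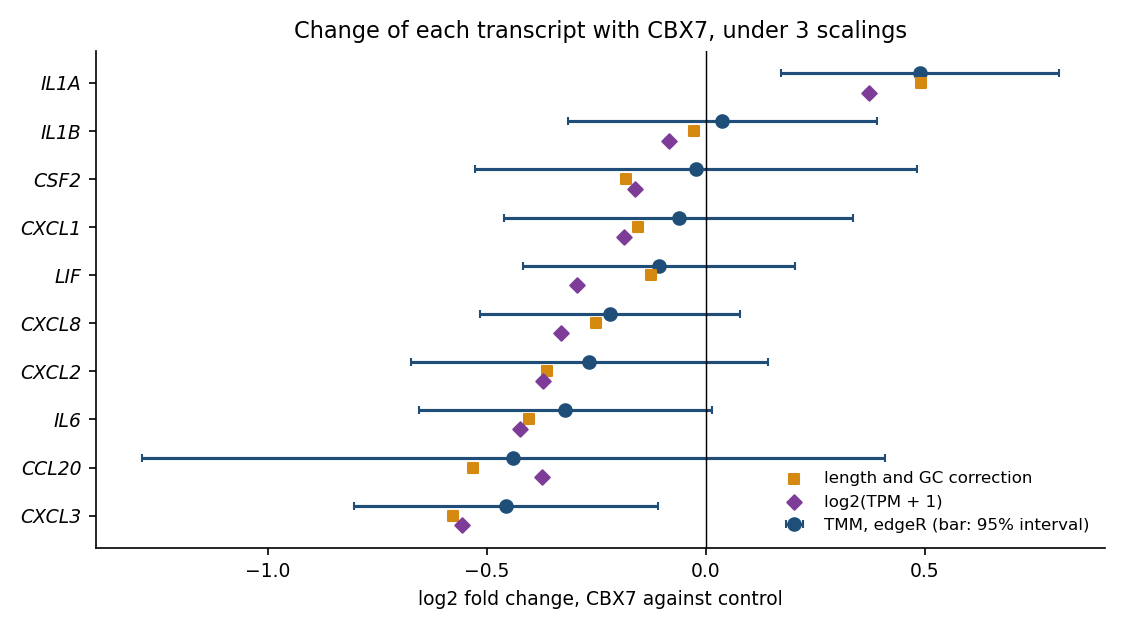
Log2 fold change of each message, CBX7 against control, from edgeR with TMM (circles, bars give the 95% interval), from edgeR after correction for gene length and GC content (squares) and from limma on log2(TPM + 1) (diamonds). The TMM interval excludes 0 for IL1A and CXCL3, and the estimate for IL1B lies on either side of 0 depending on the scaling.

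Of the 4 CXC chemokines among these messages, CXCL3 had the lowest p. CXCL3 (ENSG00000163734, chr4:74036589-74038807, minus strand) gave 26.7 and 26.5 CPM in control and 20.5 and 18.3 CPM in CBX7 cells. The groups did not overlap and the means were 26.6 ± 0.117 and 19.4 ± 1.61 CPM (SD, n = 2 each), a log2 fold change of -0.46 (SE 0.14, a fold of 0.729 with a 95% interval of 0.574 to 0.927, edgeR adjusted p = 0.824). CXCL2 (ENSG00000081041, chr4:74097035-74099293, minus strand) gave 56.3 and 49.0 CPM in control and 48.2 and 39.5 CPM in CBX7 cells. The higher CBX7 library was thus only just under the lower control library, and the log2 fold change was -0.27 (SE 0.16, edgeR adjusted p = 0.951). CXCL1 (ENSG00000163739, chr4:73869393-73871242, plus strand) gave 1415 and 1338 CPM in control and 1479 and 1159 CPM in CBX7 cells. Here the CBX7 libraries fell on either side of the controls, 1.07 and 0.842 times the control mean, and the fitted fold of 0.958 had a 95% interval of 0.727 to 1.26. CXCL1, CXCL2 and CXCL3 must be read with care as separate genes, since coding identity above 90% lets reads fit more than 1 of them. Counts that were not whole were present in all 3, and also in IL1A and LIF, but not in the other 5 messages.

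CXCL8 (ENSG00000169429, chr4:73740506-73743716, plus strand) encodes interleukin-8, a potent neutrophil attractant. It gave 732 and 723 CPM in control and 619 and 632 CPM in CBX7 cells. The libraries of each group lay close together and the groups did not overlap, with means of 728 ± 6.70 and 626 ± 9.31 CPM (SD, n = 2 each). The log2 fold change was -0.22 (SE 0.12, 95% interval -0.52 to 0.08, a fold of 0.860, edgeR adjusted p = 0.951). CCL20 (ENSG00000115009, chr2:227805739-227817564, plus strand) rested on 32 and 22 counts in control and 21 and 20 counts in CBX7 cells. At this depth its fold of 0.738 had a 95% interval of 0.410 to 1.33, so that a difference was not detectable.

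The IL-1 genes lie side by side on chromosome 2 and gave different values. IL1A (ENSG00000115008, chr2:112773915-112784590, minus strand) encodes a cytokine that also acts inside the cell and at the cell surface as an alarmin. It gave 93.1 and 94.8 CPM in control and 128 and 136 CPM in CBX7 cells. Both CBX7 libraries lay above both controls, by 1.36 and 1.45 times the control mean, and IL1A was the only member higher in both. The log2 fold change was 0.49 (SE 0.13, a fold of 1.40 with a 95% interval of 1.13 to 1.75, edgeR adjusted p = 0.670). IL1B (ENSG00000125538, chr2:112829751-112836903, minus strand), the precursor of the cytokine released after cleavage by caspase-1, gave 443 and 422 CPM in control and 482 and 406 CPM in CBX7 cells. The CBX7 libraries enclosed the controls, and the fold of 1.03 had a 95% interval of 0.804 to 1.31.

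IL6 and LIF, the gp130 cytokines, were both somewhat lower in CBX7 cells without passing the test. IL6 (ENSG00000136244, chr7:22725884-22732002, plus strand) gave 40.8 and 39.0 CPM in control and 33.5 and 30.4 CPM in CBX7 cells. The groups were apart, and the log2 fold change was -0.32 (SE 0.13, a fold of 0.801 with a 95% interval of 0.635 to 1.01, edgeR adjusted p = 0.951). IL6 overlaps STEAP1B on the other strand, which held 158 to 191 counts beside 679 to 974 for IL6, and whether counting used strand is not given in the sources used here. LIF (ENSG00000128342, chr22:30240447-30246851, minus strand), known for keeping mouse embryonic stem cells pluripotent, gave 370 and 357 CPM in control and 325 and 350 CPM in CBX7 cells. CBX7 replicate 2 was only just under control replicate 2, and the fold of 0.929 had a 95% interval of 0.750 to 1.15. CSF2 (ENSG00000164400, chr5:132073790-132076170, plus strand) gave 30.3 and 26.2 CPM in control and 32.5 and 23.2 CPM in CBX7 cells. The CBX7 libraries lay outside the controls on either side and differed from each other 1.40 times, the widest replicate gap of the 10 messages, and the fold of 0.985 had a 95% interval of 0.694 to 1.40.

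Ratios of 2 messages within a library do not depend on how whole libraries are scaled, but they keep a length or GC trend that differs between libraries. In CBX7 replicate 1 the fitted log2 trend was 0.01 for IL1A, 0.13 for IL1B, 0.23 for CXCL3, 0.18 for CXCL1, 0.19 for CXCL2 and 0.04 for CXCL8. IL1A counts were 3.49 and 3.57 times those of CXCL3 in control and 6.21 and 7.46 times in CBX7 cells. This ratio, formed from the messages that differed most in either direction, was chosen after their values were seen and is a description: its mean was 1.94 times higher in CBX7 cells. IL1A was 21.0% and 22.5% of IL1B in control and 26.5% and 33.6% in CBX7 cells. CXCL3 was 1.89% and 1.98% of CXCL1 in control and 1.39% and 1.58% in CBX7 cells, and CXCL2 was 3.98% and 3.66% against 3.26% and 3.41%. The groups were apart in each of these 4 ratios, for which an exact two-sided permutation test gave its smallest possible p for 2 against 2 libraries, 0.333. CXCL8 was 51.8% and 54.0% of CXCL1 in control and 41.9% and 54.5% in CBX7 cells, where the groups overlapped (exact permutation p = 1).

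Gene length moved with these values in CBX7 replicate 1. In that library, genes with a median length of 686 bases were higher than the control mean by a median log2 of 0.46 and genes of 10946 bases were lower, at -0.54, whereas in replicate 2 the same bins stood at -0.06 and 0.11. The 10 messages have a median length of 1150.5 bases. CXCL1, IL1B and CSF2, whose CBX7 libraries fell on both sides of the controls, were higher than the control mean in replicate 1 (log2 0.10, 0.16 and 0.20) and lower in replicate 2 (-0.25, -0.09 and -0.29). Set against the median of genes in the same length bin, 9 of the 10 messages were lower in replicate 1 and 9 of 10 in replicate 2, and IL1A was the exception in both. By construction, as many genes of a bin lie below its median as above it. CXCL3 stood below its bin by 0.75 and 0.47 on the log2 scale and IL6 by 0.63 and 0.33, while IL1A stood above its bin by 0.31 and 0.57. LIF, at -0.06 and -0.07 from its bin median, and IL1B, at -0.10 and -0.05, lay close to it. After a correction of every library for length and GC trends, the log2 fold change was -0.58 for CXCL3, -0.40 for IL6, -0.36 for CXCL2, -0.25 for CXCL8, -0.15 for CXCL1 and 0.49 for IL1A. These 6 of 10 reached an unadjusted edgeR p under 0.05, against 7.95% of all genes, and the 5 lower ones compare with 3.77% of all genes. None passed the adjusted test in that fit (lowest adjusted p = 0.186, for IL1A).

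**Figure D3:**
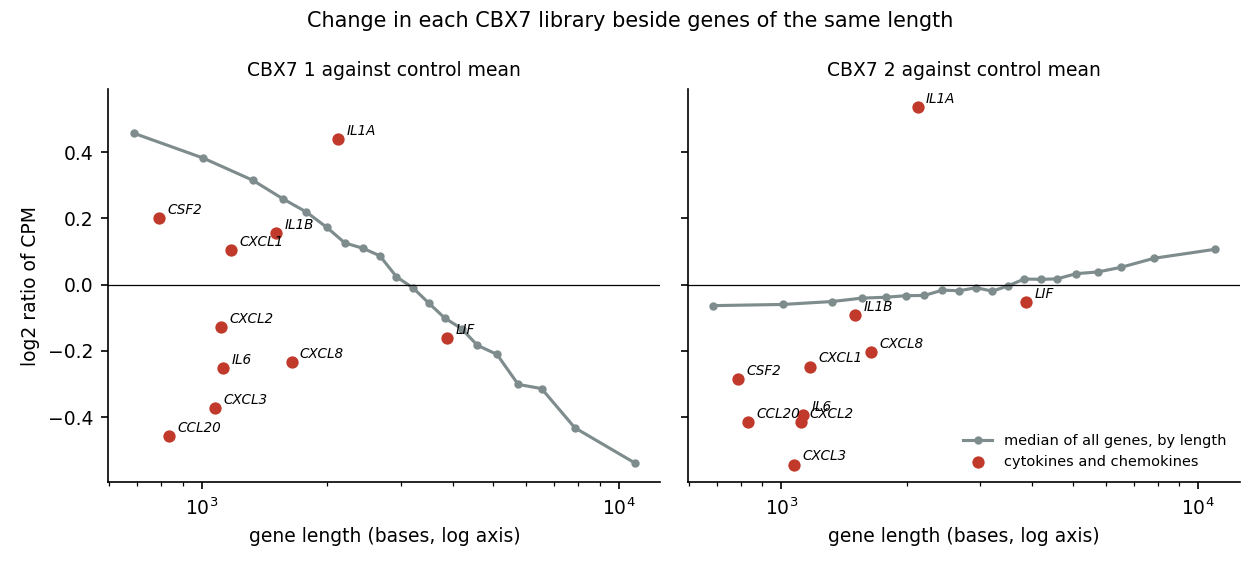
Log2 ratio of CPM to the control mean against gene length (bases, log axis) in CBX7 replicate 1 (left) and CBX7 replicate 2 (right); the grey line joins medians of all genes in 20 length bins and red points are the 10 messages. The line runs from 0.46 to -0.54 on the left and is nearly flat on the right, and in both panels every message but IL1A lies below it.

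The deposited TPM values put 9 messages lower in both CBX7 libraries than in both controls (against 17.4% of all genes) and IL1A higher in both (12.2%). TPM divides each gene by its length, which does not remove a length trend that differs between libraries. These values are therefore another scaling of the libraries and not a correction for that trend. CXCL1, for example, gave 1963 and 1932 TPM in control and 1720 and 1701 TPM in CBX7 cells, and IL1B gave 456 and 453 against 415 and 443 TPM. The summed TPM of the 10 messages was 3587 and 3558 in control and 2999 and 3219 in CBX7 cells. On the log2(TPM + 1) scale the median log2 fold change of the 10 was -0.31, beside a median of -0.08 over all genes, and none passed the adjusted test of limma.

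Leaving out a library gave calls among the 10 messages only when it was a CBX7 library, and CXCL3 and IL1A were called without either one. Without CBX7 replicate 1, edgeR gave adjusted p values of 0.00264 for CXCL3, 0.0201 for CXCL2, 0.0441 for IL6 and 0.000101 for IL1A. Without CBX7 replicate 2 it gave 0.0138 for CXCL3, 0.0355 for CXCL8 and 0.000290 for IL1A. Without either control library no member was called, and the adjusted p was 1.00 for all 10. In the fits with 1 CBX7 library, that library is assumed to vary like the control pair, and 2.59% and 35.4% of all genes passed. The assumption of like variation was not met over all genes. Chi-square per degree of freedom, a measure of spread within a group, was 6.439 for the control libraries and 59.52 for the CBX7 libraries. The calls from the fits with 1 CBX7 library, those of CXCL3 and IL1A included, are therefore not firm. Over the fits to all 4 libraries, adjusted p ranged from 0.0438 to 1.00 for CXCL3 and from 0.0343 to 0.942 for IL1A. The lowest values came from a fit with a replicate block (same-numbered libraries compared with each other) in addition to length and GC. In that fit these 2 of the 10 passed, against 0.908% of all genes, and no other member did.

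The chromosome 4 chemokine cluster holds other members of the family between these genes. CXCL8, CXCL1, CXCL3 and CXCL2 span 358788 bases. CXCL6, a neutrophil chemokine next to CXCL8, gave 28.9 and 27.0 CPM in control and 16.4 and 18.7 CPM in CBX7 cells, with both CBX7 libraries below both controls. Its log2 fold change was -0.67 (SE 0.14, edgeR adjusted p = 0.490). With a replicate block the edgeR adjusted p was 0.00367, and 0.0414 with the length and GC correction as well (2.42% and 0.908% of all genes called). CXCL5 gave 35.9 and 38.1 TPM in control and 22.3 and 33.3 TPM in CBX7 cells. The platelet chemokine genes PF4, PF4V1 and PPBP, interspersed in the same region, had a count of 0 in every library, which allows up to 0.119 to 0.144 CPM (3 counts, counting error only). Around IL1A and IL1B, a span of 62989 bases, the related genes IL36A, IL36G and IL37 had at most 2 counts in any library.

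**Figure D4:**
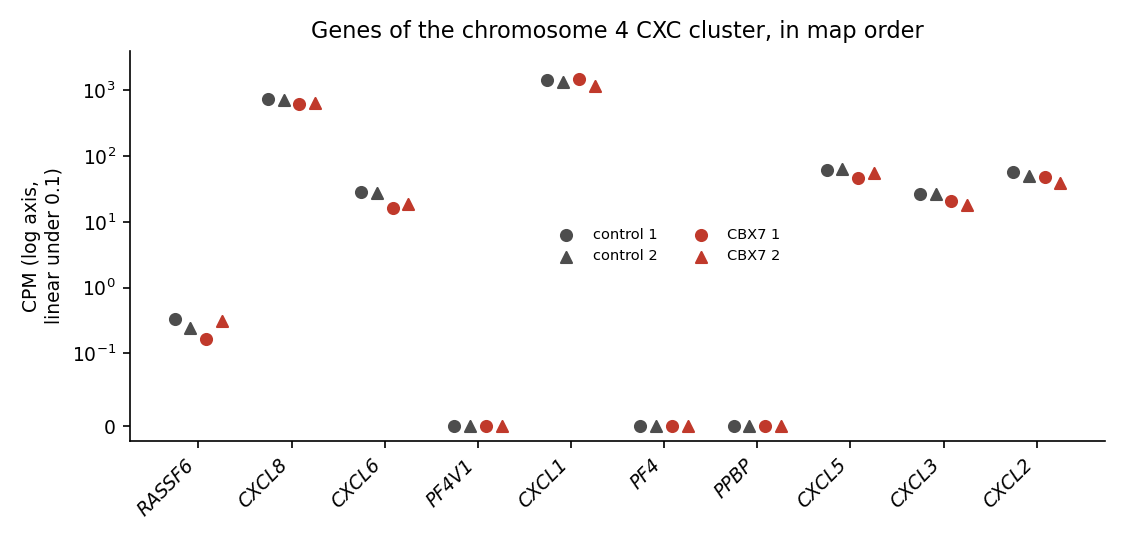
CPM (log axis, linear under 0.1) of the protein-coding genes of the chromosome 4 CXC chemokine cluster in map order, with 1 point per library, grey for control and red for CBX7, circles for replicate 1 and triangles for replicate 2. CXCL8, CXCL6, CXCL5, CXCL3 and CXCL2 have both CBX7 points below both controls, the CXCL1 points interleave, and PF4V1, PF4 and PPBP lie at 0.

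The genes whose levels followed the mean profile of the messages most closely over the 4 libraries were KCNK1, AL121845.3, CASP9, VAPA and SCPEP1. Likeness was Pearson's r between a gene's log2 CPM and the mean centred profile of the 9 members with at least 50 counts, and r was above 0.999 for each. With only 4 points, 165 of 11068 genes (1.49%) reached an r above 0.95, and 5 (0.0452%), the named genes, one above 0.999. CXCL2 followed the profile most closely of the members themselves (r = 0.98), and CXCL1, CXCL3, IL6 and CSF2 had an r between 0.80 and 0.89. IL1B (r = 0.63), CXCL8 (0.59) and LIF (0.21) followed it less closely, and IL1A ran against it (r = -0.75). The profile stood at 0.090 and 0.015 in the control libraries and at 0.027 and -0.132 in the CBX7 libraries, so that the groups overlapped.

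Other secreted factors gave a mixed picture. Of 18 other cytokines 13 were tested, and edgeR with TMM gave 2 higher (3.42% of all genes) and 2 lower (1.32%) at an unadjusted p under 0.05. None passed the adjusted test in that fit, whereas without the low-count filter IL24 and IL32 did (1.01% of all genes). IL24, an IL-10 family cytokine, gave 4.95 and 4.29 CPM in control and 1.57 and 1.52 CPM in CBX7 cells. The groups were far apart, with a log2 fold change of -1.57 (SE 0.24, edgeR adjusted p = 0.284). With a replicate block the edgeR adjusted p was 3.93e-05, in a fit that called 2.42% of all genes. IL11, a gp130 cytokine like IL6 and LIF, gave 5.67 and 6.97 TPM in control and 7.49 and 9.82 TPM in CBX7 cells, a log2 fold change of 0.54 (SE 0.17, edgeR adjusted p = 0.840). The remaining ones, IL32 (log2 fold change 1.24) and TNFSF10 (-0.84), had a mean under 50 counts and are named because their values were seen. CSF3, the granulocyte colony-stimulating factor, was among the most abundant, at 629 and 610 TPM in control and 636 and 588 TPM in CBX7 cells. IL18 lay between 58.0 and 66.6 TPM and TNF, itself an NF-kB inducer, between 10.1 and 13.1 TPM. Of 15 other chemokines only 4 were tested and 6, CCL2 among them, were at 0 in every library. CXCL6 was the one lower at an unadjusted p under 0.05 (1.32% of all genes), and CXCL16 was low, at 0.90 to 1.71 TPM.

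Most receptors for these messages were scarce or at 0. CXCR1, CXCR2, CCR6, CSF2RB and the antagonist IL1RN had a TPM of 0 in all 4 libraries, and 5 of 13 genes in this list were tested. The gp130 chain IL6ST was the most abundant, at 31.4 and 41.6 TPM in control and 17.5 and 41.4 TPM in CBX7 cells, with CBX7 replicate 1 apart from the other 3 libraries. IL1RAP, the shared IL-1 receptor chain, lay between 5.13 and 9.60 TPM and IL6R between 1.41 and 4.12 TPM. LIFR, the partner chain for LIF, gave 11.6 and 13.5 CPM in control and 6.09 and 8.46 CPM in CBX7 cells. It was the one gene of the list with an unadjusted p under 0.05 (1.32% of all genes for lower ones), at a log2 fold change of -0.79 (SE 0.22, edgeR adjusted p = 0.723). Over the fits to all 4 libraries its adjusted p went from 0.00255 (edgeR with a replicate block) to 0.942 (limma on log2(TPM + 1)).

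In the edgeR fit with TMM, no gene of the NF-kB machinery had an unadjusted p under 0.05, against 4.74% of all genes, a share at which few would be expected in lists of this size. The lists were 5 subunits (median log2 fold change -0.04), 13 genes of the IKK complex and its adaptors (-0.0011) and 14 induced feedback inhibitors (-0.07), all tested. DESeq2 and limma on log2(TPM + 1) gave none either, against 2.88% and 3.61% of all genes. With the length and GC correction RELA, RELB, IKBKG and ZC3H12A had an unadjusted p under 0.05, against 7.95% of all genes, and none passed the adjusted test. Without CBX7 replicate 2, where 35.4% of all genes passed, edgeR called 2 subunits (REL and NFKB2), 2 genes of the IKK list and 6 feedback inhibitors. RELA, the main activating subunit, gave 85.5 and 83.7 TPM in control and 57.2 and 76.3 TPM in CBX7 cells, NFKB1 gave 41.5 and 44.6 against 32.6 and 50.2 TPM, and NFKB2 gave 112 and 110 against 114 and 127 TPM. REL, at 7.75 and 14.8 CPM in control and 3.73 and 13.7 CPM in CBX7 cells, had a log2 fold change of -0.37 with an SE of 0.62, both replicate 1 libraries being low. The inhibitor NFKBIA, which is itself induced by NF-kB, lay between 170 and 179 TPM, TNIP1 between 216 and 248 TPM and IER3 between 77 and 92 TPM. TRAF1 had a log2 fold change of -0.36 (SE 0.23) and the adaptor TRAF2 one of 0.29 (SE 0.15). IRAK1, a kinase below the IL-1 receptor, lay between 312 and 362 TPM and IKBKG, the regulatory IKK subunit, between 52.8 and 60.0 TPM.

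Among 17 other NF-kB-induced genes 14 were tested, and in edgeR with TMM 2 were lower at an unadjusted p under 0.05 (1.32% of all genes). At that level DESeq2 gave none (2.88% of all genes) and limma on log2(TPM + 1) gave TNFAIP8 alone (3.61%). TNFAIP8 gave 22.2 and 20.9 CPM in control and 17.0 and 16.9 CPM in CBX7 cells (log2 fold change -0.34, SE 0.14, edgeR adjusted p = 0.951). PTGS2, the inducible cyclooxygenase, had a log2 fold change of -0.84 on a mean under 50 counts and is named because its value was seen. G0S2 lay between 578 and 718 TPM, PLAU between 151 and 177 TPM and the mitochondrial dismutase SOD2 between 83.8 and 131 TPM, lowest in CBX7 replicate 1. The acute-phase gene SAA1 had a log2 fold change of 0.51 (SE 0.29) with overlapping groups.

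The AP-1 and C/EBP factors, which act with NF-kB on CXCL8, IL6 and IL1A, were all tested, 11 in number. In edgeR with TMM 1 was higher at an unadjusted p under 0.05 (3.42% of all genes), CEBPA, whose CPM did not exceed 1.12 and which is named because its value was seen. DESeq2 gave none at that level (2.88% of all genes). With the length and GC correction 6 of the 11 were under it (FOSL1, FOSL2, FOSB, CEBPA, CEBPB and CEBPD, against 7.95% of all genes) with none past the adjusted test, and without CBX7 replicate 2 edgeR called 4 (35.4%). FOSL1 was abundant, at 457 and 462 TPM in control and 396 and 431 TPM in CBX7 cells, JUN lay between 71.8 and 83.1 TPM and CEBPB between 48.0 and 62.7 TPM. FOSL2 had a log2 fold change of -0.43 (SE 0.20). The 8 proteins that bind AU-rich elements, which set the half-life of many cytokine messages, had a median log2 fold change of 0.04. HNRNPD lay between 453 and 504 TPM, KHSRP between 164 and 246 TPM and ELAVL1 between 56.4 and 70.1 TPM, and ZFP36L1 had a log2 fold change of -0.26 (SE 0.14). In the response to IL6 and LIF, the groups were apart and lower in 5 of 8 genes (14.8% of all genes). None had an unadjusted p under 0.05 in edgeR with TMM, DESeq2 or limma on log2(TPM + 1), against 4.74%, 2.88% and 3.61% of all genes. JAK1, TYK2 and SBNO2 had one with the length and GC correction (7.95% of all genes), and JAK1 was called by edgeR without CBX7 replicate 2 (35.4%). STAT3 itself gave 42.7 and 47.6 TPM in control and 29.3 and 52.7 TPM in CBX7 cells, SBNO2 lay between 43.0 and 55.7 TPM, and JAK1 had a log2 fold change of -0.32 (SE 0.18). The 8 genes of the inflammasome and IL-1 release had a median of -0.02, with CASP4 between 72 and 80 TPM, GSDMD between 66 and 77 TPM, GSDME between 43 and 53 TPM and PYCARD at a log2 fold change of 0.20 (SE 0.22).

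**Figure D5:**
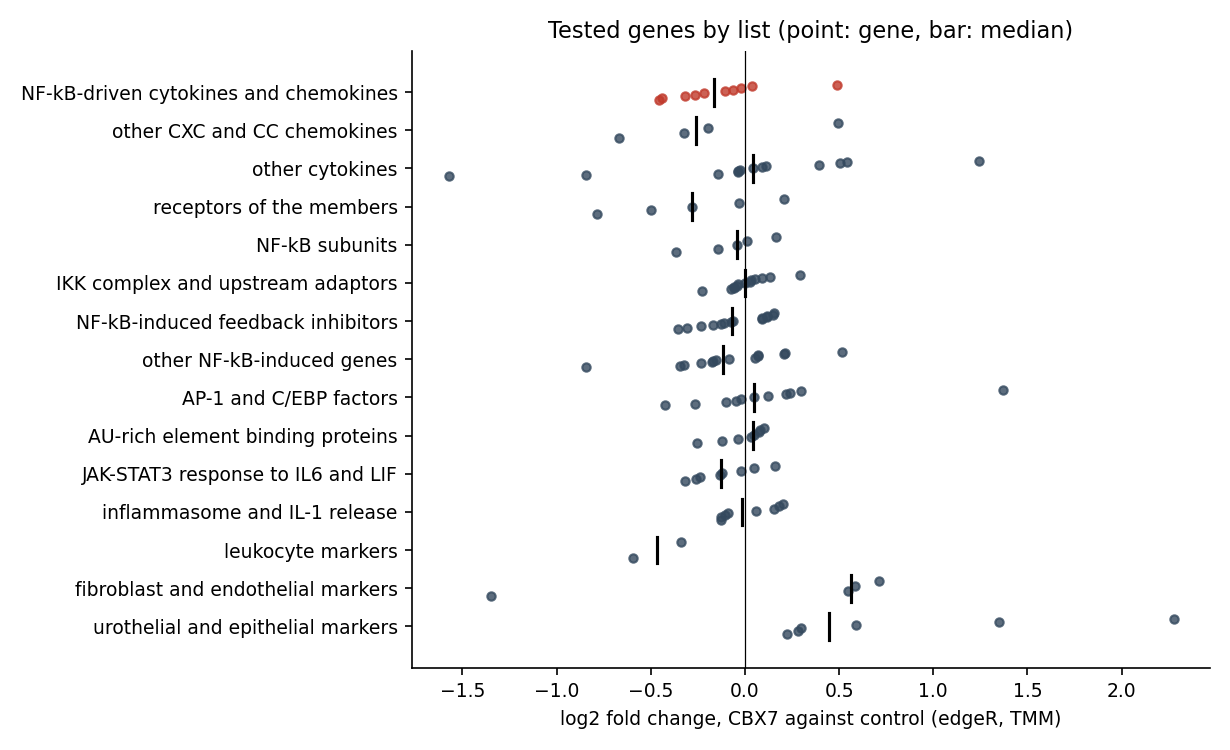
Log2 fold change, CBX7 against control (edgeR, TMM), of every tested gene in each list; each point is a gene, red for the 10 cytokine and chemokine messages and dark blue for other lists, and black bars give list medians. Points for the NF-kB subunits, the IKK complex and the feedback inhibitors lie within 0.37 of 0, while the widest values belong to IL24 among the other cytokines and to low-count genes such as GATA3.

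Markers of other cells that secrete these factors were scarce. Of 9 leukocyte markers 7 were under 1 TPM in every library, PTPRC and CD3E among them, and the summed level was 13.1 and 11.2 TPM in control and 7.81 and 8.60 TPM in CBX7 cells. Nearly all of it was CD68, a lysosomal protein that tumour cells also make, with a log2 fold change of -0.60 (SE 0.20, edgeR adjusted p = 0.916). CD14 lay between 0.79 and 1.64 TPM and CD79A did not exceed 0.26 TPM. The 8 fibroblast and endothelial markers summed to 2.34 and 2.35 TPM in control and 2.45 and 5.99 TPM in CBX7 cells, the highest value resting on COL1A1 (log2 fold change 0.71, SE 0.25, edgeR adjusted p = 0.944), with DCN and PDGFRB under 1 TPM. CDH5, an endothelial cadherin named because its values were seen, had 13 and 12 counts in control and 3 and 7 in CBX7 cells. The 12 urothelial and epithelial markers summed to 3248 and 3151 TPM in control and 3731 and 3352 TPM in CBX7 cells. All 6 tested had a log2 fold change above 0, as had 7471 of the 14863 genes tested. At an unadjusted p under 0.05, 2 of the 6 were higher (3.42% of all genes), KRT19 and GATA3. KRT19 gave 6.54 and 5.72 CPM in control and 18.5 and 12.8 CPM in CBX7 cells (log2 fold change 1.35, SE 0.23, edgeR adjusted p = 0.351, DESeq2 adjusted p = 0.00361). Over the fits to all 4 libraries its adjusted p went from 2.23e-09 (edgeR with a replicate block) to 0.942 (limma on log2(TPM + 1)). GATA3 was under 1 CPM and is named because its value was seen. The part of these marker differences in the cytokine values was not tested, and fewer cells making a message cannot be told apart from less message per cell in these bulk libraries.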

How the data were processed

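Expression was measured by RNA-seq of total RNA in 4 T24 libraries, 2 control and 2 CBX7. The deposited table gives, for 60623 Ensembl genes, estimated counts and TPM as the authors made them, with gene length. Per the labels, processing named cutadapt 1.9.1, HISAT2 2.0.1, HTSeq 0.6.1, DESeq2 and hg19. Of the deposited counts, zeros included, 88.2% to 88.9% were exactly whole (counts have 2 decimals) and the rest were not. Whether a tool named in the labels made these estimated counts is not given in the sources used here. Coordinates come from GENCODE release 29 (GRCh38), which held 96.5% of the gene identifiers, and not from the table.

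Estimated counts were rounded and tested with edgeR 4.0.16 (filterByExpr, TMM, quasi-likelihood) in R 4.3.3, with Benjamini-Hochberg adjustment over 14863 genes; standard errors were derived from the test. DESeq2 1.42.0 and limma 3.58.1 on log2(TPM + 1) or log2(TPM + 0.1) were alternatives, beside other scalings and filters, a length and GC correction, a replicate block and leaving out each library. A TPM fold change is on the log2(value + pseudocount) scale and understates the change of low genes. The fits were also run on simulated data, with planted changes larger than those of the 10 messages, which does not measure their power for these messages. Depth, 20800910 to 25135488 counts, set the limit of a count of 0 (3 counts) at 0.119 to 0.144 CPM; such limits cover counting error only. Length trends used genes averaging 100 counts or more, in 20 bins, with 0.5 CPM added.

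The members and gene lists were chosen with earlier results of these data known. Named were all members and CBX7, and of each other list the 3 genes of highest mean TPM, those with an unadjusted p under 0.05 and a mean of at least 50 counts, and the one of largest change with at least 50 counts, plus the 5 genes most like the members.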

Additional observations from a re-analysis of the deposited data

How the results depend on the processing

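No member was called under DESeq2 size factors, upper-quartile scaling, DESeq2, either filter, the newer quasi-likelihood method, the replicate block, the length and GC correction or limma, and 29 of 31 single genes kept their sign in every fit to all 4 libraries. The counts moved more: against 3 genes called, DESeq2 gave 67, no filter 265, the length and GC correction 5, the replicate block 360 and the block with the correction 135. In these data the replicate numbers carry no stated pairing; same-numbered libraries deviated together (correlation 0.385 over all tested genes and 0.624 over those averaging at least 100 counts), and the cause of the extra calls was not tested. The block with the correction called 2 members, CXCL3 and IL1A, and members at an unadjusted p under 0.05 numbered 2 at first (4.74% of all genes), 3 with the block (10.2%), 6 with the correction (7.95%) and 5 with both (11.4%). Other list genes called, 0 at first, became 1 with DESeq2 (KRT19), 4 with no filter (IL24, IL32, LIFR and KRT19), 6 with the block (CXCL6, IL24, IL32, LIFR, KRT19 and GATA3; in the NF-kB and JAK-STAT3 lists REL, CYLD and JAK1 had an unadjusted p under 0.05 and were not called, and with the correction as well this held for RELA, RELB, IKBKG, BCL3, IER3, ZC3H12A, SBNO2, TYK2 and JAK1) and 3 with the block and correction (CXCL6, IL24 and KRT19), and those at an unadjusted p under 0.05, 13 at first, became 7, 15, 21 and 31, and 27 with the correction alone. The members' median log2 fold change was -0.31 with limma on log2(TPM + 1) and also with a pseudocount of 0.1, where the median of all genes was -0.08 and -0.10. IL1B turned to -0.0259 with the correction, to -0.026 with the block as well, and to -0.0832 and -0.0834 under the TPM fits, and PYCARD to -0.11 with the correction, also with the block. Leaving out a library gave 46 to 5497 genes called (5497 without CBX7 replicate 2), 0 to 4 members called, 0 to 7 members and 6 to 56 list genes at an unadjusted p under 0.05 (7 members without CBX7 replicate 1, with 9.34% of all genes; 4 members and 56 list genes without CBX7 replicate 2, with 42.9%; 0 members without either control, with 2.87% and 2.47%), 0 to 43 list genes called and a member median of -0.26 to -0.12. It moved CXCL1 from -0.24 to 0.10, IL1B from -0.0874 to 0.16, CSF2 from -0.28 to 0.20, REL from -1.58 to 0.30 and PYCARD from -0.13 to 0.47. Without turning the sign, it moved 8 of 31 single genes by over 1.5 times: CCL20 from -0.60 to -0.25, CXCL2 from -0.41 to -0.13, LIF from -0.16 to -0.05, FOSL2 from -0.72 to -0.18, JAK1 from -0.55 to -0.12, ZFP36L1 from -0.37 to -0.14, SAA1 from 0.19 to 0.77 and TRAF2 from 0.14 to 0.43. Depth limits CCL20, with 20 to 32 counts.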
